A study of Mus musculus with 12 samples.

Results

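Genes of serine, mitochondrial one-carbon, asparagine and proline synthesis, with the stress-response genes Trib3 and Chac1, were described across 12 Affymetrix arrays of the MIN6 line, which was derived from a mouse insulinoma and stands in for beta cells. The set was named by gene symbol: Phgdh, Psat1, Psph, Shmt2, Mthfd2, Asns, Aldh18a1, Pycr1, Trib3 and Chac1. Of these 10 genes, 9 had a probe set that the platform annotation assigns to them alone, and Pycr1 was not analysed here. They are 9 of 19938 genes tested.

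Each array held RNA of cells plated at 50000 per well, transfected with Hes3 siRNA (2 µM, per the labels) or scrambled control siRNA, and assayed 12 to 24 hours after transfection. The groups were Hes3 siRNA in Defined Conditions (DC; serum-free medium at 5% oxygen) with 4 arrays, scrambled siRNA in DC with 4 arrays, Hes3 siRNA in Classic Conditions (CC; serum medium at 20% oxygen) with 2 arrays, and scrambled siRNA in CC with 2 arrays. All groups were first kept in medium with 15% fetal calf serum, and all came from 1 cell line. The labels used here name no separate experiments. The p-values therefore measure only the spread between these samples, which may be technical. DC and CC differ in serum and oxygen at once, so the parts of these 2 cannot be told apart.

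Serine is made from the glycolytic intermediate 3-phosphoglycerate in a chain of reactions that use PHGDH, PSAT1 and PSPH in turn. SHMT2 and MTHFD2 pass a carbon of serine onto folate in mitochondria, ASNS makes asparagine from aspartate and glutamine, and ALDH18A1 and PYCR1 make proline. Most genes of this set are textbook targets of ATF4, a transcription factor whose translation rises when amino acids are short or proteins misfold, and which binds C/EBP-ATF response elements. Trib3 and Chac1 are markers of the same response: TRIB3 is a pseudokinase that restrains ATF4 and AKT, and CHAC1 degrades glutathione.

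The signal of the targeted gene, Hes3, was not lower: it had a log2 fold change of 0.15 ± 0.0767 (SE) in DC and 0.20 ± 0.109 in CC for the arrays labelled Hes3 siRNA against scrambled siRNA (limma adjusted p = 0.114 and 1.00). The Hes3 signal was dim, from 6.82 to 7.38 over the 12 arrays, where the median of all probe sets was 7.78 to 7.96. Whether this probe set could show a fall was not tested. Groups are therefore named by their label. Of the beta cell markers, 8 of 9 measured lay in the brightest 25% of genes, Slc2a2 being the exception. Of markers of other islet cells 3 of 8 did, Gcg, Sst and Ttr. Of the acinar and duct markers and of the fibroblast, macrophage and endothelial markers, 0 of 9 and 0 of 12 did. The mean log2 signal of the 9 acinar and duct markers ran from 7.18 to 7.39 in DC arrays labelled Hes3 siRNA and 6.96 to 7.10 in DC scrambled arrays, against 7.09 in both CC arrays labelled Hes3 siRNA and 6.94 to 7.08 in CC scrambled arrays. That of the 12 other markers ran from 7.41 to 7.58 in DC arrays labelled Hes3 siRNA and 7.23 to 7.31 in DC scrambled arrays, against 7.35 in both CC arrays labelled Hes3 siRNA and 7.20 to 7.35 in CC scrambled arrays. For the siRNA labels in DC, 7 of 9 acinar and duct markers, 8 of 12 of the others and 5 of 8 markers of other islet cells rose. None of these fell, while 4 of 9 beta cell markers fell (Neurod1 by 0.47) and 1 rose. Of all genes 28.9% rose and 18.3% fell, and 40.9% of the brightest 25% fell. The lists differ in brightness, with a median percentile of 25.8 for acinar and duct markers and 24.7 for the others. It was 64.3 for markers of other islet cells and 98.6 for beta cell markers. In DC against CC, Gcg fell by 1.05 with Hes3 siRNA and 0.93 with scrambled siRNA, and Ttr by 0.69 and 0.81. Neurod1, Gcg and Ttr were named after their values were seen. Of the 8 markers of other islet cells, 5 rose and 2 fell in DC against CC with Hes3 siRNA, where 21.2% of all genes rose and 18.8% fell. With scrambled siRNA 0 rose and 2 fell, where 3.09% of all genes rose and 5.45% fell. The part of these markers in the results was not tested. The DC arrays labelled Hes3 siRNA stood apart from the rest. Their values had a narrower spread over all probe sets (SD 1.76 to 1.80, against 1.82 to 1.85 in DC scrambled arrays), and arrays 1 and 5 scored 57.6 and 43.8 on the first principal component, which held 51.2% of the variance, against -43.3 to 21.5 on the other 10. In this group bright genes were lower and dim genes higher as a whole. The median log2 fold change against DC scrambled arrays was -0.15 in the brightest 25% of genes and 0.15 in the dimmest 25%, and 6 of the 9 genes lie in the brightest 25%. The part of this shift in the members' values was not tested beyond the normalizations given below. Of all genes called in that comparison 61.3% were higher. This share became 36.7% with arrays centred on their median, 39.4% after cyclic loess normalization and 59% after quantile normalization. For DC against CC with Hes3 siRNA the share was 53.0%, and it became 17.3%, 36.5% and 40.7% under the same changes.

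The comparison of DC with CC asked how serum-free culture at low oxygen changed the cells, and here most of the biosynthetic genes fell with Hes3 siRNA. In those arrays, 8 of 9 genes fell and none rose: Psat1, Shmt2, Chac1, Asns, Mthfd2, Phgdh, Aldh18a1 and Psph, by between 0.28 and 1.08 on the log2 scale. In this comparison 40.1% of all genes were called, 18.8% lower and 21.2% higher, and 44.5% of the brightest 25% fell. With scrambled siRNA, Psat1, Shmt2, Chac1 and Psph fell (4 of 9) and none rose, where 8.54% of all genes were called, 5.45% lower and 3.09% higher, and 11.9% of the brightest 25% fell. All 9 fold changes were below 0 in both comparisons, as were 37.1% of all genes with Hes3 siRNA and 43.7% with scrambled siRNA. The 9 had a median of -0.63 with Hes3 siRNA and -0.34 with scrambled siRNA, against 0.09 and 0.02 over all genes and -0.19 and -0.04 over the brightest 25%. With Hes3 siRNA the DC and CC arrays did not overlap for 7 of 9 genes (Psph and Trib3 overlapped), against 61.8% of all genes, and with scrambled siRNA for 8 of 9 (Aldh18a1 overlapped), against 27.9%. Calls are at an adjusted p under 0.05 in limma, with p adjusted over all 19938 genes. Under settings given next, 5.29% of all genes passed in either direction with scrambled siRNA and array weights. With Hes3 siRNA without DC arrays 1 and 5, 18.2% did. The count with scrambled siRNA rests on CC scrambled array 2: without it 0 of 9 passed (3.72% of all genes passed in either direction), and with array weights 2 did. The count with Hes3 siRNA was 5 without CC array 2 labelled Hes3 siRNA, when Phgdh, Psph and Aldh18a1 did not pass (11.8% of all genes passed), and 7 without DC arrays 1 and 5, when Psph did not.

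**Figure D1:**
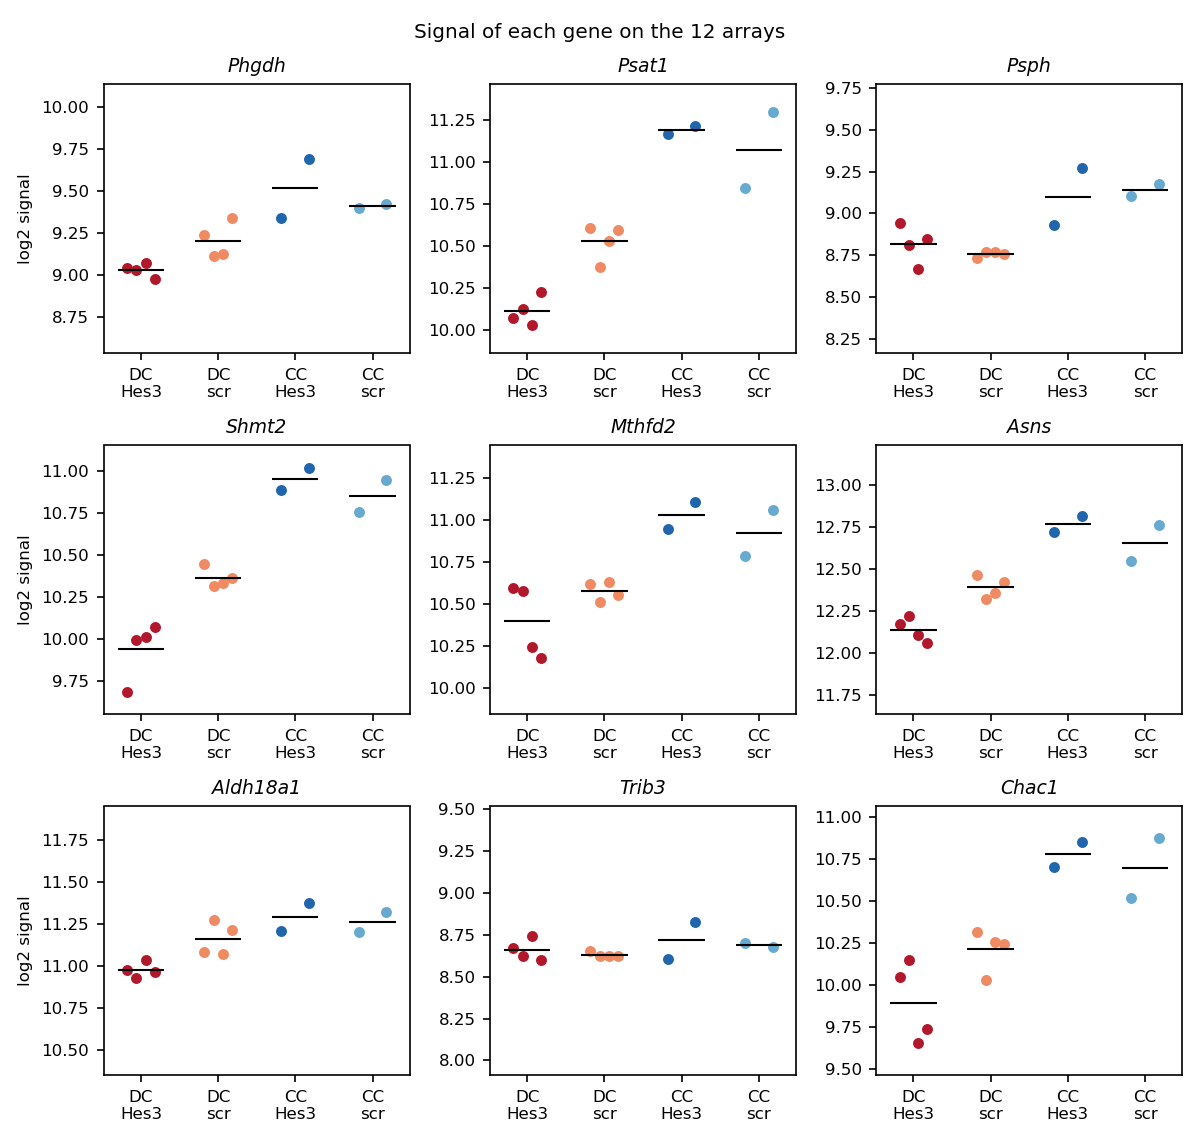
Log2 signal (vertical axis, with the same length of 1.6 units in every panel) of the 9 genes on each array, with DC arrays left of CC arrays and Hes3 siRNA left of scrambled siRNA. Points are arrays and lines are group means. The DC points of Psat1, Shmt2, Mthfd2, Asns, Chac1 and, narrowly, Phgdh lie below all CC points, while those of Psph, Aldh18a1 and Trib3 overlap them.

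Of the serine pathway, all 3 genes fell with Hes3 siRNA, and Psat1 and Psph also with scrambled siRNA. Psat1 (probe set 10466410), the transaminase step, had log2 signals of 10.07, 10.13, 10.03 and 10.23 in DC arrays labelled Hes3 siRNA and 10.61, 10.38, 10.53 and 10.60 in DC scrambled arrays, against 11.17 and 11.22 in CC arrays labelled Hes3 siRNA and 10.85 and 11.30 in CC scrambled arrays. The 8 DC arrays all lay below the 4 CC arrays, and within DC the 2 labels did not overlap. The log2 fold change of DC against CC was -1.08 ± 0.106 (SE; limma adjusted p = 5.58e-06) with Hes3 siRNA, so that the signal fell by 52.7%, and it was -0.54 ± 0.106 (limma adjusted p = 0.00373) with scrambled siRNA. For Psat1, 0.552% of all genes had a lower fold change with Hes3 siRNA and 1.46% with scrambled siRNA.

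Phgdh (probe set 10500529), the entry enzyme, had log2 signals of 9.04, 9.03, 9.07 and 8.98 in DC arrays labelled Hes3 siRNA and 9.24, 9.12, 9.12 and 9.34 in DC scrambled arrays. In CC it had 9.34 and 9.69 in arrays labelled Hes3 siRNA, and 9.40 and 9.42 in scrambled arrays. DC and CC arrays did not overlap within either label, but the steps were small: -0.49 ± 0.0917 (SE; limma adjusted p = 0.00121) with Hes3 siRNA and -0.21 ± 0.0917 (limma adjusted p = 0.219) with scrambled siRNA. Another probe set that the annotation assigns to Phgdh together with Gm6756 was not used. Psph (probe set 10534075), the phosphatase that releases serine, had log2 signals of 8.95, 8.82, 8.67 and 8.85 in DC arrays labelled Hes3 siRNA and 8.73, 8.77, 8.77 and 8.76 in DC scrambled arrays. In CC it had 8.93 and 9.27 in arrays labelled Hes3 siRNA, and 9.10 and 9.18 in scrambled arrays. DC array 1 labelled Hes3 siRNA lay above the lower CC array of its label. Psph averaged 8.82 ± 0.115 in DC arrays labelled Hes3 siRNA and 8.76 ± 0.0166 in DC scrambled arrays (SD, n = 4 each), against 9.10 ± 0.239 and 9.14 ± 0.0516 in CC arrays with Hes3 and with scrambled siRNA (SD, n = 2 each). Psph was at -0.28 ± 0.0919 (SE; limma adjusted p = 0.0275) with Hes3 siRNA and -0.38 ± 0.0919 (limma adjusted p = 0.0144) with scrambled siRNA. The difference of these 2 values, 0.10 (95% confidence interval -0.17 to 0.38), did not pass (limma adjusted p = 0.644). With Hes3 siRNA the call on Psph was lost without CC array 2 labelled Hes3 siRNA (-0.11) and without DC array 5 (-0.23; limma adjusted p = 0.0706). It was also lost without DC arrays 1 and 5, after quantile normalization, in a fit on only the arrays compared and with the replicate number as a block (limma adjusted p from 0.0637 to 0.177).

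Both genes of the mitochondrial folate branch fell in DC with Hes3 siRNA, and Shmt2 also with scrambled siRNA. Shmt2 (probe set 10373202), which splits serine into glycine and a folate-bound carbon, had log2 signals of 9.69, 9.995, 10.01 and 10.07 in DC arrays labelled Hes3 siRNA and 10.45, 10.32, 10.33 and 10.37 in DC scrambled arrays. The CC values of Shmt2 were 10.89 and 11.02 in arrays labelled Hes3 siRNA, and 10.76 and 10.95 in scrambled arrays. The arrays lay at 3 levels that did not overlap: DC with Hes3 siRNA lowest, DC with scrambled siRNA between, and both CC groups together on top. DC against CC gave -1.01 ± 0.0988 (SE; limma adjusted p = 5.17e-06) for Shmt2 with Hes3 siRNA, so that its signal fell by 50.4%, and -0.49 ± 0.0988 (limma adjusted p = 0.00492) with scrambled siRNA.

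Mthfd2 (probe set 10545672), the next enzyme, which oxidises that carbon, had log2 signals of 10.59, 10.57, 10.24 and 10.18 in DC arrays labelled Hes3 siRNA and 10.62, 10.51, 10.63 and 10.55 in DC scrambled arrays. In CC it had 10.95 and 11.11 in arrays labelled Hes3 siRNA, and 10.78 and 11.06 in scrambled arrays. All DC arrays lay below all CC arrays for Mthfd2. Within the DC arrays labelled Hes3 siRNA, numbers 1 and 2 sat at the level of the DC scrambled arrays and numbers 5 and 7 below it. Mthfd2 fell by 0.63 ± 0.115 (log2, SE; limma adjusted p = 0.00101) in DC against CC with Hes3 siRNA. With scrambled siRNA its value was -0.34 ± 0.115 (limma adjusted p = 0.0837).

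Asns (probe set 10543067), asparagine synthetase, had log2 signals of 12.17, 12.22, 12.11 and 12.06 in DC arrays labelled Hes3 siRNA and 12.47, 12.32, 12.36 and 12.42 in DC scrambled arrays. The CC values of Asns were 12.72 and 12.82 in arrays labelled Hes3 siRNA, and 12.55 and 12.76 in scrambled arrays. As for Shmt2, all DC arrays lay below all CC arrays and the 2 labels did not overlap within DC. DC against CC gave -0.63 ± 0.0791 (SE; limma adjusted p = 4.34e-05) for Asns with Hes3 siRNA, so that its signal fell by 35.3%. With scrambled siRNA the value was -0.26 ± 0.0791 with a limma adjusted p of 0.05005, just outside the threshold, which ranged from 0.0180 to 0.554 over its alternatives. Aldh18a1 (probe set 10467470), which starts proline synthesis, had log2 signals of 10.98, 10.93, 11.04 and 10.97 in DC arrays labelled Hes3 siRNA and 11.08, 11.27, 11.07 and 11.22 in DC scrambled arrays. In CC it had 11.21 and 11.38 in arrays labelled Hes3 siRNA, and 11.21 and 11.32 in scrambled arrays. Its DC arrays labelled Hes3 siRNA lay below all others. It averaged 10.98 ± 0.0442 in DC arrays labelled Hes3 siRNA and 11.16 ± 0.0995 in DC scrambled arrays (SD, n = 4 each). In CC it averaged 11.29 ± 0.118 in arrays labelled Hes3 siRNA and 11.26 ± 0.0827 in scrambled arrays (SD, n = 2 each). Its decrease with Hes3 siRNA was -0.32 ± 0.0796 (SE; limma adjusted p = 0.00796), and it moved to -0.11 after quantile (limma adjusted p = 0.332) and -0.12 after cyclic loess normalization (limma adjusted p = 0.278). With scrambled siRNA the arrays of DC and CC overlapped (-0.10 ± 0.0796; limma adjusted p = 0.568).

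Of the stress markers, Chac1 fell and Trib3 did not pass. Chac1 (probe set 10474972) had log2 signals of 10.05, 10.15, 9.65 and 9.74 in DC arrays labelled Hes3 siRNA and 10.32, 10.03, 10.26 and 10.25 in DC scrambled arrays. The CC values of Chac1 were 10.71 and 10.86 in arrays labelled Hes3 siRNA, and 10.52 and 10.88 in scrambled arrays. Its 8 DC arrays lay below its 4 CC arrays, and as for Mthfd2, DC arrays 5 and 7 labelled Hes3 siRNA were lower than arrays 1 and 2. Chac1 fell in DC against CC by 0.88 ± 0.134 (log2, SE; limma adjusted p = 0.000204) with Hes3 siRNA and by 0.48 ± 0.134 (limma adjusted p = 0.0323) with scrambled siRNA.

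Trib3 (probe set 10488608) had log2 signals of 8.67, 8.62, 8.74 and 8.60 in DC arrays labelled Hes3 siRNA and 8.65, 8.62, 8.62 and 8.62 in DC scrambled arrays. In CC it had 8.60 and 8.83 in arrays labelled Hes3 siRNA, and 8.70 and 8.67 in scrambled arrays. Its whole range over the 12 arrays was 0.225, against 1.22 for Chac1 and 1.27 for Psat1. DC against CC gave -0.06 ± 0.0738 (SE; limma adjusted p = 0.531) for Trib3 with Hes3 siRNA, with a 95% confidence interval of -0.21 to 0.10, which excludes the size of the change of Chac1. With scrambled siRNA the value was also -0.06 (limma adjusted p = 0.765), although the arrays did not overlap.

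**Figure D2:**
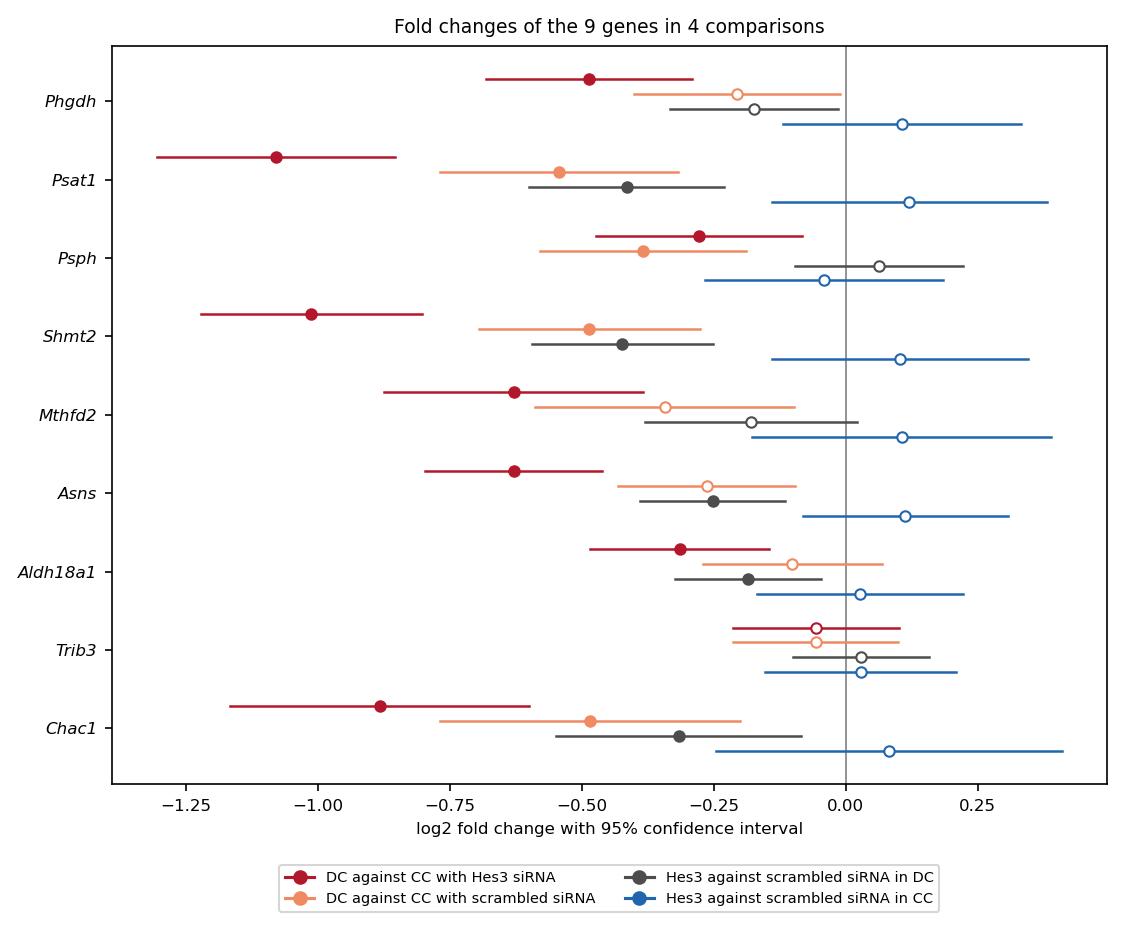
Log2 fold changes (horizontal axis) of the 9 genes in 4 comparisons, with 95% confidence intervals from the limma fit; filled points passed at an adjusted p under 0.05 and open points did not. With Hes3 siRNA 8 of 9 genes fell in DC against CC, where Psat1 (-1.08) and Shmt2 (-1.01) lie farthest to the left; in CC the 9 siRNA values lie near 0.

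Promoters are shown for Asns and Chac1, which fell, and for Trib3, which did not, because all 3 hold the letters of the C/EBP-ATF response element. The letters searched were TTNCATCA on both strands, from 250 bases before to 50 after each gene's start in RefSeq (GRCm38.p6). Of the 10 genes named, 4 held a match (Asns, Pycr1, Trib3 and Chac1), against 4.51% of 27025 genes in the promoter table, and no other motif was searched. Of other ATF4 target genes 4 of 17 with a promoter held one, of cytosolic tRNA synthetases 5 of 13, and of folate and one-carbon enzymes 0 of 15. Capitals mark the match. It lies from -23 to -16 on the opposite strand in Asns (chr6:7693160-7693459, minus strand), from -193 to -186 on the strand of the gene in Chac1 (chr2:119350992-119351291, plus strand), and from 15 to 22 after the start in Trib3 (chr2:152344011-152344310, minus strand).
Asns: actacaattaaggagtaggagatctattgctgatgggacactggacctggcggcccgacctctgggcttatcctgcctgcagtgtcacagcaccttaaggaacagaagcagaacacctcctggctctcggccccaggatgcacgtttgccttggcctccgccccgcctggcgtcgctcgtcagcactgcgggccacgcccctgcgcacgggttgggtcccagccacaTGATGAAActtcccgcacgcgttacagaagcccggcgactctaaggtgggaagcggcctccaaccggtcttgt
Chac1: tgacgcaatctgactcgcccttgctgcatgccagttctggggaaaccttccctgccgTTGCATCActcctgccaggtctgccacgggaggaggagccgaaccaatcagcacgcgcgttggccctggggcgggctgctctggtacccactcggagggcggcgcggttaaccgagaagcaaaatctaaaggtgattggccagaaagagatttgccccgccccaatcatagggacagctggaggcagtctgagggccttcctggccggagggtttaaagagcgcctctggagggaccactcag
Trib3: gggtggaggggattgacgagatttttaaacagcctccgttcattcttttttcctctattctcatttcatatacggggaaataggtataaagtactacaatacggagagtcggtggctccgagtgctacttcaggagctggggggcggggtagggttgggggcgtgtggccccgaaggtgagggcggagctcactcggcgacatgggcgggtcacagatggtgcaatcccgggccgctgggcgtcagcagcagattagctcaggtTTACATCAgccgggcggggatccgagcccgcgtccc
The match in Chac1 and that in Trib3 are on the same strand as the gene, and those of Chac1 and Asns lie before the start. Psat1 and Shmt2, with the lowest fold changes of the 9 genes in DC against CC with Hes3 siRNA, held no match, which says only that these letters are not in this window. A match is a description of sequence, not a measured binding site.

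Within DC, the siRNA comparison addressed what Hes3 siRNA changed in serum-free medium at 5% oxygen. In the arrays labelled Hes3 siRNA, Shmt2, Psat1, Chac1, Asns and Aldh18a1 fell (5 of 9) and none rose, where 47.2% of all genes were called, 18.3% lower and 28.9% higher, and 40.9% of the brightest 25% fell. Shmt2 averaged 9.94 ± 0.174 with Hes3 siRNA and 10.37 ± 0.0583 with scrambled siRNA (SD, n = 4 each), a log2 fold change of -0.42 ± 0.0807 (SE; limma adjusted p = 0.00336). Psat1 averaged 10.11 ± 0.0858 with Hes3 siRNA and 10.53 ± 0.107 with scrambled siRNA (-0.42 ± 0.0867; limma adjusted p = 0.00428). Asns averaged 12.14 ± 0.0717 with Hes3 siRNA and 12.39 ± 0.0640 with scrambled siRNA (-0.25 ± 0.0646; limma adjusted p = 0.00853). Chac1 was at -0.32 ± 0.109 (limma adjusted p = 0.0283) with 1 scrambled array, number 2, inside the range of the arrays labelled Hes3 siRNA.

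Aldh18a1 was at -0.19 ± 0.0650 (limma adjusted p = 0.0301). With 1 array left out at a time, the call on Aldh18a1 was lost in 4 of 8 fits (limma adjusted p from 0.0558 to 0.0836) and that on Chac1 in 5 of 8 (0.0620 to 0.101), while those on Psat1, Shmt2 and Asns were kept in all 8. Phgdh (-0.17, limma adjusted p = 0.0646), Mthfd2 (-0.18, limma adjusted p = 0.121), Psph (0.06, limma adjusted p = 0.490) and Trib3 (0.03, limma adjusted p = 0.701) did not pass. The groups did not overlap for 5 of 9 genes (Phgdh, Psat1, Shmt2, Asns and Aldh18a1), as for 40.9% of all genes. The median of the 9 genes was -0.19, beside -0.15 in the brightest 25% of genes and 0.06 over all genes. Without arrays 1 and 5 labelled Hes3 siRNA, 1 of 9 passed, Shmt2, at 1.66% of all genes. After quantile and after cyclic loess normalization Psat1 and Shmt2 passed as lower (2 of 9). Of all 19938 genes 28.8% and 21.6% were then called in either direction, with 2353 and 2603 genes lower. Asns moved to -0.15 and -0.11 under these normalizations.

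In CC the same comparison gave 0 of 9 genes called by limma, as for all genes (0%), and 0 of 9 had an unadjusted p under 0.05, against 415 of all genes (2.08%). Values of 8 of the 9 genes were above 0, from 0.03 for Aldh18a1 and Trib3 to 0.12 ± 0.123 (SE) for Psat1, and Psph was at -0.04. Over all genes 42.1% were below 0. The arrays of both labels overlapped for each of the 9 genes, while 26.9% of all genes did not overlap. CC scrambled array 1 lay below the other 3 CC arrays for Psat1, Shmt2, Mthfd2, Asns and Chac1, and without it Psat1 (-0.10), Mthfd2 (-0.03), Chac1 (-0.10) and Aldh18a1 (-0.03) turned below 0.

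Whether the siRNA labels differed more in DC than in CC was tested as the difference of both contrasts. None of the 9 genes passed in limma, nor did any other gene (0%), while 4 of 9 had an unadjusted p under 0.05, against 17.4% of all genes. The values were -0.54 ± 0.150 (SE) for Psat1 (95% confidence interval -0.85 to -0.22; limma adjusted p = 0.180), -0.53 ± 0.140 for Shmt2 (limma adjusted p = 0.179), -0.37 ± 0.112 for Asns (limma adjusted p = 0.193) and -0.28 ± 0.130 for Phgdh (limma adjusted p = 0.281). Psat1 (-0.76), Shmt2 (-0.62) and Asns (-0.47) passed without CC scrambled array 2, when 10.3% of all genes did. For 7 of 9 genes, all but Psph and Trib3, the group means had the same order, with DC Hes3 siRNA lowest, then DC scrambled, CC scrambled and CC Hes3 siRNA, an order that 11.1% of all genes and 29.0% of the brightest 25% showed. The CC groups, neighbours at the top of it, did not differ beyond their spread in any of the 9 genes. The order is the one seen in these genes' own means, so the shares describe it and do not test it. The comparisons share groups, so their values for a gene are not independent of each other.

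**Figure D3:**
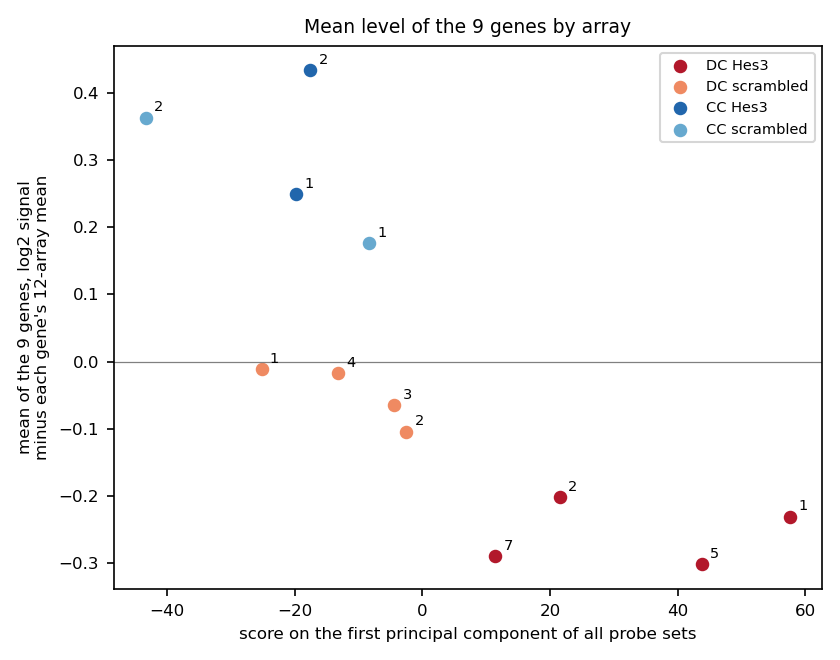
Mean of the 9 genes on each array (vertical axis, log2 signal after subtracting each gene's mean over the 12 arrays) against the array's score on the first principal component of all probe sets (horizontal axis, no unit), with array numbers beside the points. The 4 CC arrays lie between 0.18 and 0.43, the DC scrambled arrays between -0.10 and -0.01, and the DC arrays labelled Hes3 siRNA between -0.30 and -0.20, with scores from 11.4 to 57.6.

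Seen by array, the mean of the 9 genes kept the culture groups apart. Relative to each gene's mean over the 12 arrays it was -0.23, -0.20, -0.30 and -0.29 in DC arrays 1, 2, 5 and 7 labelled Hes3 siRNA and -0.01, -0.10, -0.06 and -0.02 in DC scrambled arrays. In CC it was 0.25 and 0.43 in arrays labelled Hes3 siRNA and 0.18 and 0.36 in scrambled arrays. Over the 12 arrays this mean had a Pearson r of -0.78 with the score on the first principal component. Of single genes, Shmt2 had an r of -0.87 with that score, Psat1 -0.85, Asns -0.80 and Mthfd2 -0.63, and the part of that component in the members' values was not tested further. The 5 other genes whose pattern over the 12 arrays was most like this mean were Hax1 (Pearson r 0.992), Vma21 (0.987), Rtn1 (0.985), Tmx2 (0.982) and Tubb6 (0.981), where 939 genes had an r above 0.9. These r describe 12 arrays that fall into culture groups and share their technical variation, and carry no test.

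**Figure D4:**
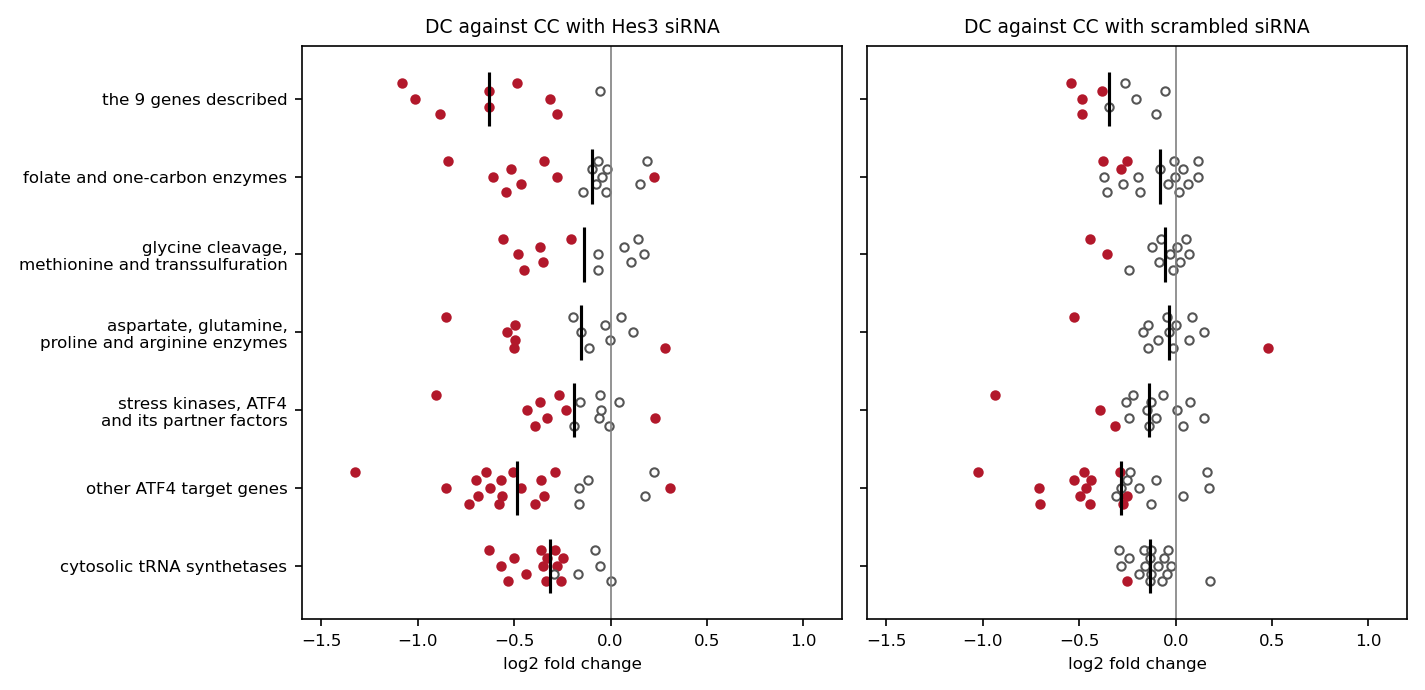
Log2 fold change of DC against CC (horizontal axis) for the 9 genes and the measured genes of 6 pathway lists, with Hes3 siRNA in the left panel and scrambled siRNA in the right; red points passed at a limma adjusted p under 0.05, open points did not, and vertical lines are list medians. The median of the other ATF4 target genes is -0.48 with Hes3 siRNA and -0.29 with scrambled siRNA, farther from 0 than those of the other lists, the 9 genes apart.

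The pathway lists were described by counts and medians, with no test of a list. Of other ATF4 target genes, 16 of 22 fell in DC against CC with Hes3 siRNA and 1 rose (median -0.48), and 12 fell and none rose with scrambled siRNA (median -0.29). Of all genes 18.8% fell with Hes3 siRNA and 5.45% with scrambled siRNA, and of the brightest 25% of genes, where the median gene of this list lies, 44.5% and 11.9%. The cystine transporter Slc7a11 fell by 1.33 ± 0.0957 with Hes3 siRNA and 1.02 ± 0.0957 with scrambled siRNA (log2, SE), and the glutamine transporter Slc1a5 by 0.70 with either. The alanine transaminase Gpt2, which is on the aspartate and glutamine list too, fell by 0.85 with Hes3 siRNA and 0.53 with scrambled siRNA, and the branched-chain transaminase Bcat1 by 0.73 and 0.71. The cationic and neutral amino acid transporters Slc7a1 and Slc38a2 fell by 0.65 and 0.56 with Hes3 siRNA, and by 0.50 and 0.46 with scrambled siRNA. The riser was the hormone gene Fgf21 (0.31), named after its value was seen. After cyclic loess normalization 12 fell with Hes3 siRNA (median -0.33) and 11 with scrambled siRNA (median -0.26). Of all genes 25.7% and 10.1% were then called in either direction, and 18.2% with Hes3 siRNA without DC arrays 1 and 5. Counts of lower genes were 16 without DC arrays 1 and 5 labelled Hes3 siRNA, and 8 with scrambled siRNA without CC scrambled array 2.

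Among stress kinases, ATF4 and its partner factors, 7 of 15 fell and 1 rose with Hes3 siRNA, and 3 fell with scrambled siRNA, beside the same shares of all genes. The stress cofactor Nupr1 fell by 0.91 ± 0.111 with Hes3 siRNA and 0.94 ± 0.111 with scrambled siRNA (log2, SE). Trib1, a pseudokinase related to Trib3, fell by 0.33 with Hes3 siRNA and 0.39 with scrambled siRNA, and the eIF2alpha phosphatase subunit Ppp1r15b by 0.43 and 0.31. The haem-regulated kinase gene Eif2ak1 fell by 0.39 with Hes3 siRNA. Atf4, given here outside the naming rule, fell by 0.27 with Hes3 siRNA (limma adjusted p = 0.0278) and was at -0.14 with scrambled siRNA (limma adjusted p = 0.454). The riser was Ddit3, which encodes CHOP, at 0.23 (limma adjusted p = 0.0399), also named after its value was seen. Without CC scrambled array 2, 1 gene of this list fell with scrambled siRNA.

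Of cytosolic tRNA synthetases, which charge tRNA with amino acids, 13 of 18 fell with Hes3 siRNA and 1 with scrambled siRNA, Cars (-0.25), beside 44.5% and 11.9% of the brightest 25% of genes, where the median gene of this list lies too. Tars (-0.63), Nars (-0.57), Wars (-0.53) and Hars (-0.50) fell with Hes3 siRNA. After cyclic loess normalization 7 of 18 fell with Hes3 siRNA, when 25.7% of all 19938 genes were called in either direction, 3258 of them lower. For the siRNA labels in DC 9 of 18 fell, near the 40.9% of the brightest 25% of genes. Among them were Tars (-0.42), Hars (-0.37), Yars (-0.27) and Iars (-0.26). The count was 2 after cyclic loess and 0 without arrays 1 and 5. Of all genes 21.6% and 1.66% were then called in either direction.

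In the other metabolic lists the shares lower with Hes3 siRNA lay above the 18.8% of all genes and near the 44.5% of the brightest 25%. The median genes of these lists are dimmer, at percentiles 70.5 (folate), 46.8 (glycine cleavage) and 64.5 (aspartate) of mean signal. No share was taken for genes of that brightness, and the shares are not read as results about the lists. Of 17 folate and one-carbon enzymes, 7 fell and 1 rose in DC against CC with Hes3 siRNA, and 3 fell with scrambled siRNA (0 without CC scrambled array 2). Those lower with Hes3 siRNA included the serine carrier of mitochondria Sfxn1 (-0.61), the lysosomal hydrolase Ggh (-0.84), the mitochondrial folate carrier Slc25a32 (-0.47) and thymidylate synthase Tyms (-0.52, and -0.38 with scrambled siRNA). Shmt1 (-0.28) and the folate transporter Slc46a1 (-0.25) fell with scrambled siRNA. The riser, named after its value was seen, was Aldh1l1 (0.23). In glycine cleavage, methionine and transsulfuration 6 of 12 fell with Hes3 siRNA, a count of 2 without DC arrays 1 and 5, and 2 fell with scrambled siRNA (0 without CC scrambled array 2). Cth, which makes cysteine, fell by 0.56 with Hes3 siRNA and 0.36 with scrambled siRNA, and Mat2b, a subunit of the enzyme that makes S-adenosylmethionine, by 0.45 and 0.44. Dld (-0.48), a subunit of the glycine cleavage system, and serine racemase, Srr (-0.36), fell with Hes3 siRNA. Of 13 enzymes of aspartate, glutamine, proline and arginine, 5 fell and 1 rose (Prodh, 0.28, named after its value was seen) with Hes3 siRNA. Beside Gpt2 these included Asnsd1 (-0.53), the aspartate transaminase Got2 (-0.50) and the ornithine transaminase Oat (-0.49). With scrambled siRNA Gpt2 fell and glutamine synthetase, Glul, rose by 0.48 ± 0.116 (log2, SE; limma adjusted p = 0.0160).

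For the siRNA labels in DC, 3 folate enzymes rose and 5 fell, 2 glycine cleavage and methionine genes rose and 3 fell, and 2 enzymes of the aspartate list rose and 6 fell. Of all genes 28.9% rose and 18.3% fell, and 40.9% of the brightest 25% fell, which are brighter than the median gene of each list. These counts are therefore given only as a description. Slc25a32 fell by 0.36, while the cytosolic Shmt1 (0.24) and Aldh1l1 (0.29) and the mitochondrial isoenzyme Mthfd2l (0.27) rose. Of glycine cleavage genes Gldc rose (0.26) and Dld fell (-0.42), and Srr (-0.33) and methionine synthase, Mtr (-0.17), fell. Asnsd1 (-0.56), Glul (-0.52) and Gpt2 (-0.39) fell, and Prodh, which degrades proline, rose (0.32). In the list of stress kinases and factors Eif2ak1 (-0.32) and the amino acid sensor Eif2ak4 (-0.18) fell (2 of 15). Of other ATF4 target genes 8 of 22 fell and 1 rose, with Sesn2 (-0.40), Slc7a11 (-0.30) and Slc6a9 (-0.24) among them. Without DC arrays 1 and 5 labelled Hes3 siRNA, 2 of the other ATF4 target genes and 0 of the folate enzymes fell. After cyclic loess normalization 4 of the other ATF4 target genes fell and none rose, with a list median of 0.03. Of all genes 1.66% and 21.6% were called in either direction under these settings.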

How the data were processed

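RNA of 12 MIN6 samples was measured on Affymetrix arrays from 250 ng of total RNA each, per the labels. The deposited table holds 1 log2 value per probe set and array for 35556 probe sets; the log2 scale is read from the values (3.94 to 14.4), and the authors' summarization and normalization are not given in the sources used here. Precision is limited by how many arrays there were.

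The platform annotation of 2016 gave 21789 probe sets 1 gene symbol, 1621 several and 12146 none. The brightest single-symbol probe set over the 12 arrays stood for each of 19938 genes. Groups came from the sample titles. Contrasts were fitted with limma 3.58.1 in R 4.3.3 (lmFit, eBayes) on all 12 arrays, with 1 mean per group, two-sided p and Benjamini-Hochberg adjustment over all genes, and the fit was tested on simulated data. Alternatives are given in the closing section. The members, lists and alternatives were chosen with earlier results of these data known. The text names all members, up to 4 genes past the threshold from each of 6 lists by smallest p in comparisons where a member passed (2 where none passed), and the 5 genes most like the members' mean. Same-numbered arrays come from no stated pairing and were not paired.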

Additional observations from a re-analysis of the deposited data

Results flagged for a closer look

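Trib3 in DC scrambled array 1, at a log2 signal of 8.65, lay apart from the other 3 arrays of its group, which all lay at 8.62. Its gap to the nearest of them made up 0.931 of the group's range, above the critical value of 0.829 for 4 arrays. In all, 18 groups of 4 arrays were checked, of which chance picks about 1 in 20.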

How the results depend on the processing

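For DC siRNA labels, the 5 genes called became 2 after quantile and 2 after cyclic loess normalization, 1 without DC arrays 1 and 5 labelled Hes3 siRNA, and 3 to 4 with 1 array left out. For DC against CC with scrambled siRNA, the 4 called became 2 with array weights and 0 to 6 with 1 array left out (6 without CC scrambled array 1). With Hes3 siRNA, the 8 became 5 to 8 with 1 array left out, and for the difference of siRNA contrasts the 0 became 0 to 3. With the replicate number as a block, 1 gene was called for DC siRNA labels, 3 and 7 for DC against CC with scrambled and Hes3 siRNA, and 0 for CC and for the difference. Numbers 3, 4, 5 and 7 occur on 1 array each. With the block, the contrasts therefore rest on arrays 1 and 2 of each group. Deviations of same-numbered arrays correlated from -0.44 to 0.25. The cause of the changes under the other settings was not tested. All genes called numbered 9408 for DC siRNA labels (5736 quantile, 4297 cyclic loess, 5436 with genes under the 40th percentile left out, 331 without arrays 1 and 5, 620 with the block, 5754 to 10476 with 1 array left out), 1702 for DC against CC with scrambled siRNA (1054 array weights, 804 block, 742 to 2364) and 7986 with Hes3 siRNA (5025 quantile, 5131 cyclic loess, 3631 without arrays 1 and 5, 4051 block, 2357 to 9516), and 0 for the difference (2056 without CC scrambled array 2, 0 without any other single array). The lowest count with Hes3 siRNA was without CC array 2 labelled Hes3 siRNA, and that with scrambled siRNA without CC scrambled array 2. The counts of list genes under other settings were added after seeing the data.

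Signs turned only in values that had no call. In DC, Mthfd2 turned to 0.0196 with the block, Psph to -0.0095 and Trib3 to -0.0436 with arrays centred on their median, and Trib3 to -0.0199 without arrays 1 and 5. The Trib3 difference of siRNA contrasts, at 0.000625, turned to -0.0232 after cyclic loess, -0.0762 with centring, -0.00017 with array weights, -0.0210 with the block, -0.0478 without arrays 1 and 5 and ran from -0.11 to 0.11 with 1 array left out. With 1 array left out, CC siRNA values ran from -0.0560 to 0.11 for Aldh18a1, -0.10 to 0.26 for Chac1, -0.0309 to 0.24 for Mthfd2, -0.0687 to 0.28 for Phgdh, -0.10 to 0.34 for Psat1, -0.21 to 0.13 for Psph and -0.0825 to 0.14 for Trib3. Trib3 in DC against CC with Hes3 siRNA ran from -0.17 to 0.0539, and the Psph difference of siRNA contrasts from -0.0641 to 0.27. Dim-gene filter, trend and robust eBayes, a fit on only the arrays compared and the mean of probe sets moved no count of the 9 genes by over 1.5 times. Depth is not a measure for these arrays; signal over background was not analysed here.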
